A study of Mus musculus with 14 samples.

Results

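Prostaglandins, thromboxane and leukotrienes are made from arachidonic acid by a short chain of enzymes, and the 10 genes described here encode that chain in mouse bone marrow-derived macrophages: Pla2g4a, Ptgs1, Ptgs2, Ptges, Hpgds, Tbxas1, Alox5, Alox5ap, Ltc4s and Lta4h. They were chosen by name for their place in the pathway and matched by gene ID, which found all 10 of them among the 21761 genes of the exon count tables and again in the intron count tables. The cells were primary macrophages grown from bone marrow of FVB/Hsd mice with L929-conditioned medium, transduced with hairpin retroviruses, selected with puromycin and left without stimulus. Knockdown cells carried a short hairpin RNA against Wdr82, a WD-repeat adaptor of the SET1 histone methyltransferases, and control cells carried a scrambled hairpin. The knockdown group has 1 library from the hairpin sh1137 and 1 from sh830, and the control group has the libraries scrambled 1 and scrambled 2, all of ribosomal RNA-depleted total RNA. Every group shares the infection and the selection, and hairpin and library cannot be told apart within the knockdown group. The labels do not say whether the libraries came from separate mice or cultures, so p-values measure at most the spread between these 4 libraries. The remaining 10 samples of the series were not analysed here.

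Cytosolic phospholipase A2 frees arachidonic acid from membranes, cyclooxygenases turn it into a prostaglandin endoperoxide, and terminal synthases turn that into individual prostaglandins or thromboxane. In the other branch 5-lipoxygenase, with the help of its activating protein, makes an unstable leukotriene that is either hydrolysed to a neutrophil attractant or joined to glutathione to start the cysteinyl leukotrienes. Macrophages are a classical source of both classes, and in them Ptgs1 is the cyclooxygenase of resting cells while Ptgs2 is known for its induction by inflammatory stimuli.

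With Wdr82 knockdown the exon counts of 6 of the 10 genes rose: Pla2g4a, Ptgs1, Ptgs2, Tbxas1, Alox5 and Ltc4s. Those of Hpgds fell. The remaining 3, Ptges, Alox5ap and Lta4h, did not pass the test. A gene rose or fell where its adjusted p was under 0.05 in the quasi-likelihood F-test of edgeR, adjusted by Benjamini-Hochberg over all genes and deposited regions, from a fit with a group term and a library term. The library term separates scrambled 1 and sh1137, whose counts lay in introns to 40.4% and more, from scrambled 2 and sh830, where introns took 15.2% and less; this split was read from the data. The share of all 13884 tested genes called in that fit was 6.06% higher and 7.79% lower. The median log2 fold change was 0.65 over the 10 genes and -0.01 over all tested genes. With upper-quartile scaling the calls over all genes were 1036 higher and 633 lower, against 841 higher and 1081 lower with the TMM scaling used here, and the 10 genes then held 6 higher and 0 lower calls. TMM factors from all genes, the setting used first, gave 5 higher and 0 lower calls among the 10, without Ltc4s and Hpgds. Fitted by group alone in edgeR, 0 of all genes and 0 of the 10 were called, although before adjustment p was under 0.05 for 437 higher genes, Ptgs1 among them, and for 209 lower ones. DESeq2 with the group term alone called 176 genes, of which Ptgs1 was the sole member of the pathway set. An exact permutation test of 2 against 2 libraries cannot give a two-sided p below 0.33.

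Wdr82 itself had 25.1 and 40.7 counts per 1000000 effective exon counts (CPM) in the sh1137 and sh830 libraries, against 100.3 and 144 CPM in scrambled 1 and 2, and fell by 1.91 ± 0.0939 on the log2 scale (SE, edgeR adjusted p = 0.00216). Total exon counts of genes ran between 34787556 and 43372731 per library. All 8 macrophage markers were detected in every library, with summed levels of 8598 and 15166 CPM in the knockdown libraries and 10172 and 12141 CPM in the scrambled ones, and 2 of them, Cd68 and Fcgr1, fell. The mast cell markers Mcpt4, Fcer1a, Ms4a2 and Tpsb2 and the platelet marker Pf4 were at 0 in all 4 libraries. Among the others, 2 of 6 fibroblast and stroma markers rose (Col1a1, Pdgfrb), as did 2 of 3 endothelial markers (Pecam1, Cdh5), 1 of 7 platelet and megakaryocyte markers (Ppbp) and 1 of 4 dendritic cell markers (Xcr1). Of the neutrophil markers all 8 passed the filter on low counts and could be tested, of the T cell markers 3 of 5, of the eosinophil markers 1 of 3 (Siglecf) and of the mast cell and basophil markers 1 of 7 (Kit), and none of these was called in edgeR with the library term. The basophil marker Mcpt8, not tested, had 0 exon counts in sh1137 and 129 in sh830 (3.06 CPM), against 0 and 1 in scrambled 1 and 2. In bulk RNA a change in the number of cells of one type and a change in RNA per cell cannot be told apart.

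**Figure D1:**
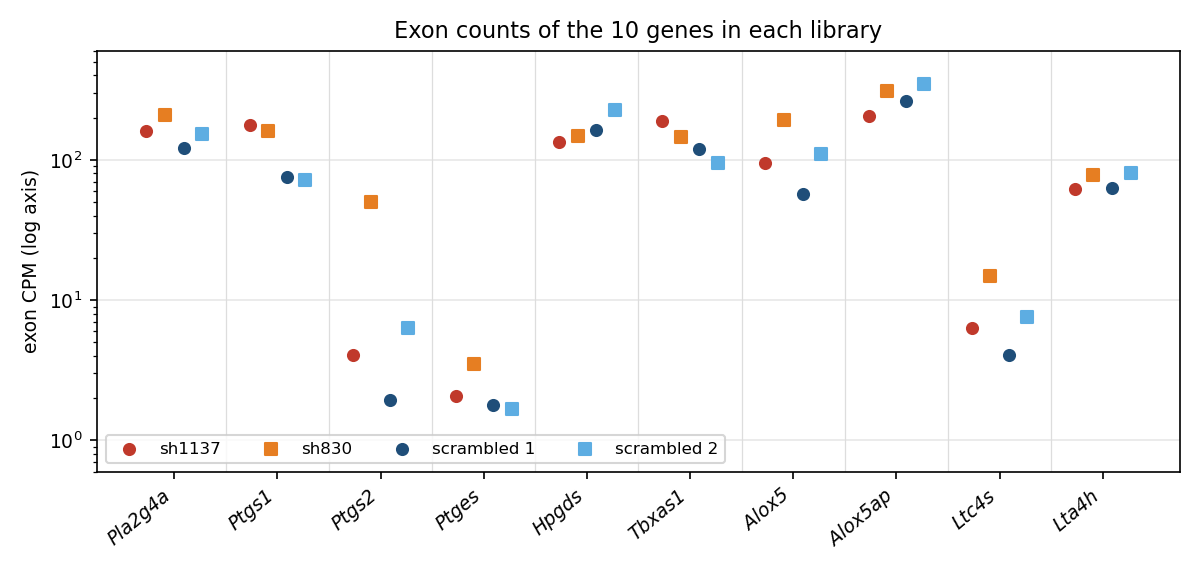
Exon counts of the 10 genes as CPM on a log axis, 1 point per library, knockdown libraries in red and orange and scrambled ones in blue, with circles for the libraries with a high intron share and squares for those with a low one. Both knockdown points lie above both scrambled points for Pla2g4a, Ptgs1, Ptges and Tbxas1 and below them for Hpgds.

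The promoter windows of 4 of the genes are shown because they are the cyclooxygenase pair, which differed in how evenly it changed, and the synthase and the lipoxygenase that moved in opposite directions. Each is the 250 bases before the start site in RefSeq's GRCm38.p6 table, 5′ to 3′ on the strand of the gene, with matched motifs in capitals. They are Ptgs1 at chr2:36230176-36230425 on the plus strand, Ptgs2 at chr1:150099781-150100030 on the plus strand, Hpgds at chr6:65144731-65144980 on the minus strand and Alox5 at chr6:116461179-116461428 on the minus strand.
Ptgs1: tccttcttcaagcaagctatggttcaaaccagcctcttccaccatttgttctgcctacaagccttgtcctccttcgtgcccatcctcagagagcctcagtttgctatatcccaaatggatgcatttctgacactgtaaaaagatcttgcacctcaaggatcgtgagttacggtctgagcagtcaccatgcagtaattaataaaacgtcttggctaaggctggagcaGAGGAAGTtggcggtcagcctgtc
Ptgs2: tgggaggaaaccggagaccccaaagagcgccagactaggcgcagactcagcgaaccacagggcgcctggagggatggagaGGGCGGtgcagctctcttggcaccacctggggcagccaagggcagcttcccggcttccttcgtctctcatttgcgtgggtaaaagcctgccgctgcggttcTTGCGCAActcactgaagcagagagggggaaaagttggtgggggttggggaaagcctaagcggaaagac
Hpgds: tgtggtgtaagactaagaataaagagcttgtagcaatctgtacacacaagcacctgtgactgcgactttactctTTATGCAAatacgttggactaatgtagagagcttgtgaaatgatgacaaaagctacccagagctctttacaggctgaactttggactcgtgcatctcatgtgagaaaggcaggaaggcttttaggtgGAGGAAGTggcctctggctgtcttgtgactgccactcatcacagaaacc
Alox5: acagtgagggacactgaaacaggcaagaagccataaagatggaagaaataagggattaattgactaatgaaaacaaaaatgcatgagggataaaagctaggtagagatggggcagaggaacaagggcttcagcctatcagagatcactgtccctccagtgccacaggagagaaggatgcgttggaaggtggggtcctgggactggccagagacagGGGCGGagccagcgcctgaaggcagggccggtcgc
The letters searched on both strands were GAGGAAGT for PU.1, TTGCNNAA for C/EBP, GGGCGG for a GC box, TATAAA for a TATA box, GGGA, any base and TTTCC for NF-kB and TGACGTCA for a cyclic AMP response element. PU.1 letters begin 24 bases before the start site of Ptgs1 and 49 before that of Hpgds, and they occur in 2.44% of 32851 mouse windows. Ptgs1, which rose, and Hpgds, which fell, thus share them. C/EBP letters begin 69 bases before the start of Ptgs2 and 176 before that of Hpgds, in a motif that 9.56% of windows hold. GC box letters lie in the windows of Ptgs2, Alox5 and Ptges and in 32.7% of all windows, and TATA box letters in those of Tbxas1, as an overlapping pair, and of the 2nd start site of Pla2g4a and in 12.4% of all. The NF-kB and cyclic AMP letters, in 0.356% and 1.55% of all windows, are in none of the members' windows. A match describes letters and no site, and no match says only that these letters are not in this window. Windows were found for 9 of the 10 genes, all but Alox5ap.

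Among the exon levels per kb of exon, Alox5ap stood highest with a mean of 329 CPM per kb, at the 99th percentile of tested genes, and its lowest library lay above the highest library of every other member. Pla2g4a (56.5), Hpgds (50.8), Ptgs1 (42.4), Alox5 (38.0), Tbxas1 (21.9), Lta4h (14.7), Ltc4s (13.9), Ptgs2 (3.78) and Ptges (0.621 CPM per kb) followed in that order of mean level. Each neighbouring pair from Pla2g4a downwards had ranges over the 4 libraries that overlapped, so the order between neighbours is not separated by the spread. Ptges lay at the 17.5th percentile of tested genes and Ptgs2 at the 36.6th, which makes the inducible pair of enzymes the least abundant members in these unstimulated cells.

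Pla2g4a encodes cytosolic phospholipase A2, which cuts arachidonic acid from phospholipids. The gene lies on chromosome 1, from 151676752 to 151808414 on the minus strand of mm9, 138839 bp from Ptgs2. Its exons had 162 and 207 CPM in the sh1137 and sh830 libraries, against 122 and 153 CPM in scrambled 1 and 2. Both knockdown libraries were higher than both scrambled ones, by a small margin between sh1137 and scrambled 2. The exon level rose by 0.42 ± 0.0827 on the log2 scale (SE, edgeR adjusted p = 0.0299). Introns had 497 and 251 CPM of effective intron counts in the sh1137 and sh830 libraries and 359.8 and 209.7 CPM in scrambled 1 and 2, and there the groups overlapped. The intron log2 fold change was 0.37 ± 0.0983 and its call depended on the scaling and the filter. The edgeR adjusted p was 0.0648 with the scaling used here, 0.0327 with DESeq2 size factors, 0.0236 with upper-quartile scaling, 0.0292 with TMM factors from all genes and 0.00978 without the filter on low counts, and DESeq2 with the library term gave 0.117. Leaving out 1 library at a time, with the group term alone, gave exon log2 fold changes of 0.24 without sh830, 0.26 without scrambled 1, 0.59 without sh1137 and 0.62 without scrambled 2, none of them past the threshold.

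Ptgs1, the gene of the constitutive cyclooxygenase, gave the smallest exon p of the 10 genes. It lies on chromosome 2, from 36085946 to 36107789 on the plus strand of mm9. Exon levels were 179 and 161 CPM in the sh1137 and sh830 libraries, against 75.0 and 71.5 CPM in scrambled 1 and 2. Levels within each group were close to each other and the groups were far apart. The exon level rose by 1.21 ± 0.0845 on the log2 scale (edgeR adjusted p = 0.00465), and the sh1137 and scrambled 1 pair gave 1.25, the sh830 and scrambled 2 pair 1.17. Intron levels were 119 and 65.7 CPM in the sh1137 and sh830 libraries, against 44.5 and 29.6 CPM in scrambled 1 and 2, again without overlap, and rose by 1.3 ± 0.112 (edgeR adjusted p = 0.00283). Intron against exon change did not pass the test, with a difference of 0.09 ± 0.122 (edgeR adjusted p = 0.815). Leaving out each library in turn moved the exon log2 fold change between 1.13 and 1.3, with adjusted p from 0.142 without sh830 to 0.721 without scrambled 2, and gave an intron value of 0.83 without sh1137.

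Of the deposited non-gene regions, 7 were named for a member or lay within 100 kb of one, and 5 of these rose, against 54.6% of all tested regions; the authors chose the regions for their change with knockdown, so their direction is no independent evidence. Ptgs1 has one at each end. The upstream region, 10500 bp long with its near edge 2446 bp before the deposited start of the gene, had 18.7 and 3.15 CPM in the sh1137 and sh830 libraries, against 1.59 and 0.502 CPM in scrambled 1 and 2. It rose by 3.18 ± 0.314 on the log2 scale (edgeR adjusted p = 0.00796), and its level in sh1137 was far above that in the other 3 libraries. The region at the end, 6500 bp long and overlapping the last exon, had 55.9 and 31.4 CPM in the sh1137 and sh830 libraries, against 12.2 and 8.38 CPM in scrambled 1 and 2. No knockdown library overlapped a scrambled one there, and it rose by 2.06 ± 0.125 (edgeR adjusted p = 0.00375). RefSeq gives Ptgs1 a span of 41852 bp in GRCm38.p6, beginning 13684 bp before the start site of the promoter window, against 21844 bp in the deposited mm9 annotation. The far edge of the upstream region lies 12946 bp before the deposited start, so whether it falls inside a longer Ptgs1 gene model was not tested across the builds.

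**Figure D2:**
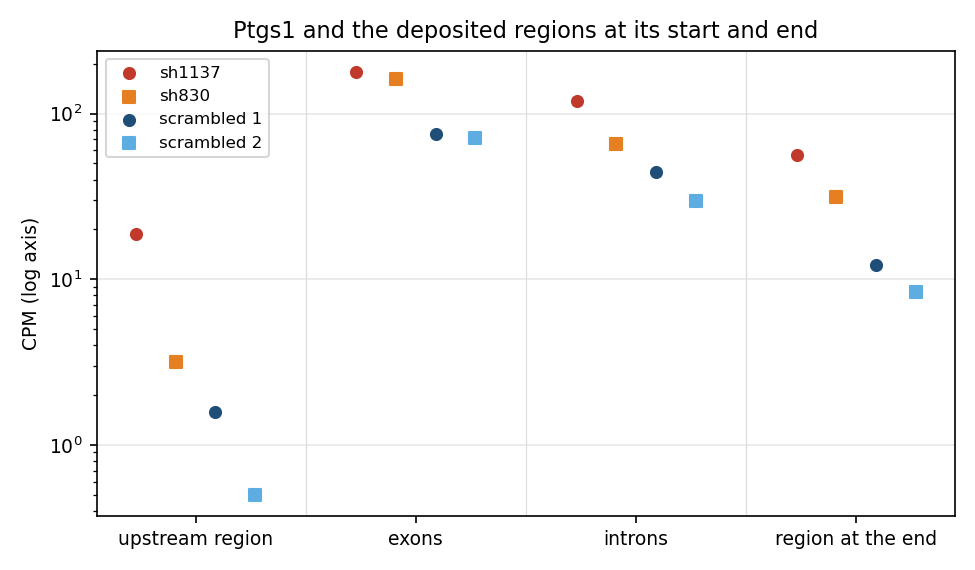
CPM on a log axis, 1 point per library, for the deposited region upstream of Ptgs1, its exons, its introns and the deposited region at its end, where introns are scaled to intron counts and the rest to exon counts. Both knockdown points lie above both scrambled points in each of the 4 intervals, with the upstream region at 18.7 CPM in sh1137 and 3.15 CPM in sh830.

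The genes with the pattern most like that of Ptgs1, by Euclidean distance over the 4 centred log2 CPM values, were Sec16b (distance 0.0837), Ahr (0.129) and Rarb (0.169). Sec16b was low, at 0.560 and 0.545 CPM in the sh1137 and sh830 libraries and 0.245 and 0.226 CPM in scrambled 1 and 2. Counting error is large at such levels, so its place as the nearest gene is uncertain. Ahr, which encodes the aryl hydrocarbon receptor, had 9.10 and 8.67 CPM in the sh1137 and sh830 libraries, against 4.21 and 4.09 CPM in scrambled 1 and 2. Levels of Rarb, a retinoic acid receptor gene, were 1.87 and 1.49 CPM in the sh1137 and sh830 libraries and 0.807 and 0.702 CPM in scrambled 1 and 2.

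Ptgs2, the inducible cyclooxygenase gene, lies on chromosome 1 from 151947254 to 151955142 on the plus strand of mm9. Its exons had 4.08 CPM in sh1137 and 50.3 CPM in sh830, against 1.93 and 6.32 CPM in scrambled 1 and 2. The sh830 library alone was high, the sh1137 library lay below scrambled 2, and the groups overlapped. The fit called a rise of 2.18 ± 0.457 on the log2 scale (edgeR adjusted p = 0.0345), made up of 1.08 in the sh1137 and scrambled 1 pair and 2.99 in the sh830 and scrambled 2 pair. Without sh830, and fitted by group alone, its log2 fold change came to -0.02 (edgeR adjusted p = 0.997). The same fit gave 3.60 without sh1137 (edgeR adjusted p = 8.44e-07), 2.09 without scrambled 1 and 3.83 without scrambled 2. With DESeq2 size factors in edgeR the adjusted p was 0.053. The knockdown libraries differed from each other by more than the fitted rise of 2.18, with a log2 ratio of -3.62 for sh1137 over sh830, and the ratio of scrambled 1 to scrambled 2 was -1.71.

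The summed level of fibroblast and stroma markers was highest in the same library as Ptgs2, though not every marker was. The sum over 6 markers, none at 0 throughout, was 44.3 CPM in sh1137 and 149 CPM in sh830, against 9.76 and 43.3 CPM in scrambled 1 and 2. Col1a1, the collagen I chain gene, had 0.774 CPM in sh1137 and 53.3 CPM in sh830, against 0.0978 and 9.26 CPM in scrambled 1 and 2. Pdgfrb, a platelet-derived growth factor receptor gene, had 42.3 and 37.3 CPM in the sh1137 and sh830 libraries, against 8.63 and 9.58 CPM in scrambled 1 and 2, and made up most of the sh1137 sum. The other 5 markers summed to 1.92 CPM in sh1137 and 112 CPM in sh830, against 1.12 and 33.7 CPM in scrambled 1 and 2. Sums of macrophage, mast cell and basophil, and B cell markers were also highest in sh830, mostly through Lyz2, Mcpt8 and Ms4a1 in that order. Those of the remaining listed types were not. The part of any of these markers in the Ptgs2 values was not tested. Intron counts of Ptgs2 were low, at 0.290 CPM in sh1137 and 4.62 CPM in sh830, against 0.0844 and 1.59 CPM in scrambled 1 and 2, and the intron log2 fold change of 1.57 ± 0.599 did not pass the test (edgeR adjusted p = 0.15). The gene Ptgs2os, on the opposite strand with its span 357 bp from that of Ptgs2, held 4 and 18 exon counts in the sh1137 and sh830 libraries, against 0 and 2 in scrambled 1 and 2, where a count of 0 allows up to 3 counts.

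Ptges, the gene of the inducible microsomal prostaglandin E synthase, lies on chromosome 2 from 30744991 to 30758817 on the minus strand of mm9. Exon levels were 2.08 and 3.51 CPM in the sh1137 and sh830 libraries, against 1.79 and 1.68 CPM in scrambled 1 and 2. The knockdown libraries were above the scrambled ones, sh1137 by little. Its exon log2 fold change was 0.65 ± 0.351 (edgeR adjusted p = 0.25) and its intron log2 fold change -0.03 ± 0.359 (edgeR adjusted p = 0.965), so neither passed the test. A region named for the neighbouring gene Tor1b, 26682 bp upstream of Ptges, was 1 of the 5 that rose, with a log2 fold change of 1.28 ± 0.239 (edgeR adjusted p = 0.0273).

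Hpgds encodes the hematopoietic prostaglandin D synthase and was the sole member called lower over exons. It lies on chromosome 6, from 65067287 to 65094724 on the minus strand of mm9. Exons had 133 and 149 CPM in the sh1137 and sh830 libraries, against 162 and 226 CPM in scrambled 1 and 2. Both knockdown libraries were below both scrambled ones, with scrambled 2 standing highest. The exon level fell by 0.44 ± 0.108 on the log2 scale, with an edgeR adjusted p of 0.0487 that moved to 0.0665 with TMM factors from all genes, 0.0717 with DESeq2 size factors and 0.0846 with upper-quartile scaling, and to 0.0258 in DESeq2 with the library term. Without scrambled 2, and fitted by group alone, the change came to -0.17, and the same fit gave -0.69 without scrambled 1, with no call. Introns moved the same way, at 337 and 326 CPM in the sh1137 and sh830 libraries against 429 and 529 CPM in scrambled 1 and 2, without overlap, and fell by 0.52 ± 0.113 (edgeR adjusted p = 0.0382). A deposited region 20275 bp upstream, named for Hpgds, did not pass the test and had a log2 fold change of 1.69 ± 0.546 (edgeR adjusted p = 0.091).

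Tbxas1 encodes thromboxane synthase. It is the longest of the 10 genes, on chromosome 6 from 38825403 to 39034578 on the plus strand of mm9. Exon levels were 191 and 146 CPM in the sh1137 and sh830 libraries, against 119.9 and 94.5 CPM in scrambled 1 and 2. The groups did not overlap, and in each group the library with the high intron share was the higher one. The exon level rose by 0.65 ± 0.0826 (edgeR adjusted p = 0.0131), and leaving out 1 library at a time gave values between 0.44 without sh1137 and 0.85 without sh830, none past the threshold. Introns held 1478 and 504 CPM in the sh1137 and sh830 libraries and 1048 and 405 CPM in scrambled 1 and 2. Those groups overlapped, and the intron log2 fold change of 0.41 ± 0.103 did not pass (edgeR adjusted p = 0.0566). It did in DESeq2 with the library term (adjusted p = 0.0414), and in edgeR with DESeq2 size factors (0.0227), upper-quartile scaling (0.0169), TMM factors from all genes (0.0174) and no filter on low counts (0.00193). The start of Tbxas1 is overlapped on the opposite strand by Hipk2, whose span ends at 38826189, and no exons of the pair overlap each other. Hipk2 also rose, by 0.48 ± 0.0877 on the log2 scale (edgeR adjusted p = 0.0265). Whether strand was used in counting is not given in the sources used here. Reads where an exon of one gene lies in an intron of the other may therefore have been assigned to either.

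Alox5, the 5-lipoxygenase gene, lies on chromosome 6 from 116360089 to 116411196 on the minus strand of mm9. Its exons had 94.3 and 192 CPM in the sh1137 and sh830 libraries, against 57.6 and 109.6 CPM in scrambled 1 and 2. The groups overlapped, since sh1137 lay below scrambled 2, and in both groups the library with the low intron share was the higher one. The exon level rose by 0.76 ± 0.0848 (edgeR adjusted p = 0.0102), from 0.71 in the sh1137 and scrambled 1 pair and 0.81 in the sh830 and scrambled 2 pair. The log2 ratio between the scrambled libraries, -0.93 for scrambled 1 over scrambled 2, was larger in size than either of these. Without sh830, and fitted by group alone, the exon change came to 0.18, and the same fit gave 0.38 without scrambled 1, 1.20 without sh1137 and 1.34 without scrambled 2, none past the threshold. The introns of Alox5 did separate the groups, with 62.3 and 50.9 CPM in the sh1137 and sh830 libraries against 38.9 and 29.1 CPM in scrambled 1 and 2, and rose by 0.74 ± 0.109 (edgeR adjusted p = 0.0134).

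Alox5ap encodes the 5-lipoxygenase-activating protein, a membrane protein that hands arachidonic acid to the lipoxygenase. It lies on chromosome 5, from 150076634 to 150099623 on the plus strand of mm9. Exon levels were 207 and 311 CPM in the sh1137 and sh830 libraries, against 262 and 345 CPM in scrambled 1 and 2. The groups overlapped, and the exon log2 fold change of -0.25 ± 0.0952 did not pass the test (edgeR adjusted p = 0.133). Introns gave another picture, with 59.2 and 51.3 CPM in the sh1137 and sh830 libraries against 111 and 88.7 CPM in scrambled 1 and 2. Here both knockdown libraries were well below both scrambled ones, and the intron level fell by 0.85 ± 0.0952 (edgeR adjusted p = 0.00609).

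Alox5ap was also the single member whose intron and exon counts changed unequally in the test of the difference itself. Its intron change lay 0.60 ± 0.116 below its exon change on the log2 scale, a difference of -0.60 (edgeR adjusted p = 5.4e-05), where 2.19% of 11772 tested genes were called higher and 1.46% lower. The p-values of this test followed the change over its SE almost as in a normal distribution, unlike those of the exon test. The exon change of Pla2g4a, 0.42 ± 0.0827, was about as large against its SE, yet its p was far larger. The small p for Alox5ap is therefore no stronger evidence from replicates than the exon calls. Over all genes the test of the difference gave 258 higher and 172 lower calls, and with upper-quartile scaling 222 higher and 310 lower. The Alox5ap difference was then -0.64. Introns took 15.5% of its exon plus intron counts in sh1137 (95% Wilson interval 14.8 to 16.3%) and 3.44% in sh830 (3.1 to 3.8%), against 19.7% in scrambled 1 (19.0 to 20.4%) and 5.0% in scrambled 2 (4.7 to 5.4%). Within each library pair the knockdown share was the lower one, but the split between libraries was larger than the change with knockdown. With the group term alone the difference was again -0.60 with an edgeR adjusted p of 1.0, and leaving out 1 library at a time it ran between -1.0 without scrambled 2 and -0.21 without scrambled 1.

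**Figure D3:**
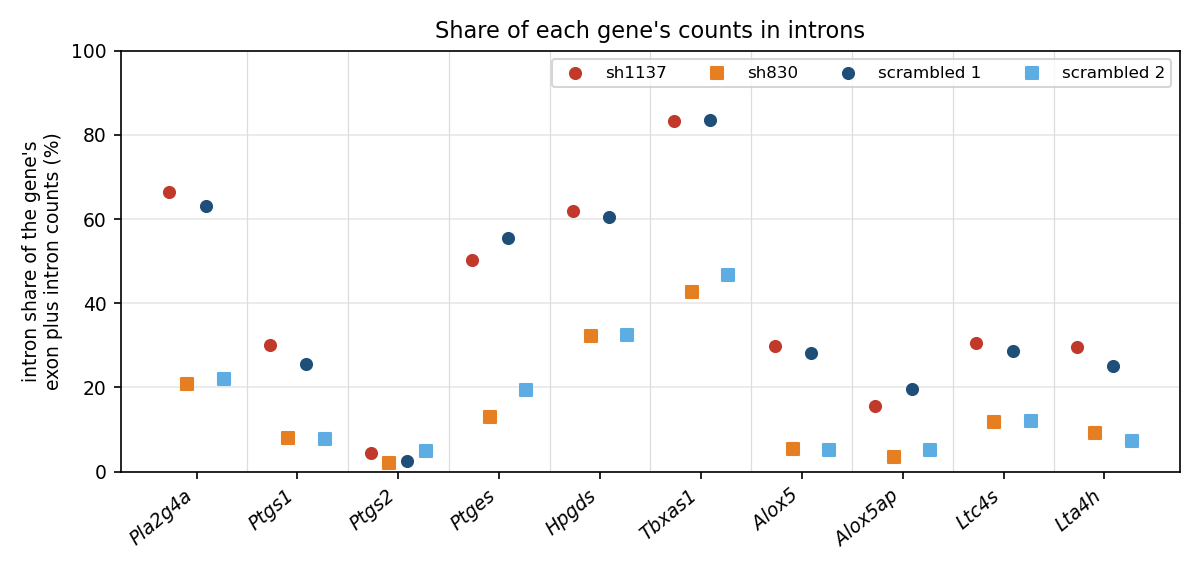
Intron share of each gene's exon plus intron counts in percent, 1 point per library, with knockdown libraries in red and orange and scrambled ones in blue. Circles (sh1137 and scrambled 1) lie above squares (sh830 and scrambled 2) for 9 genes. For Alox5ap both knockdown points are below the scrambled point of the same shape, at 15.5% against 19.7% and 3.44% against 5.0%. The same holds for Ptges and Tbxas1, though by little for the circles of Tbxas1 (83.3% against 83.5%).

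Counted over introns, 2 of the 10 genes rose (Ptgs1 and Alox5) and 2 fell (Hpgds and Alox5ap), where 5.97% of 12405 tested genes were called higher and 3.93% lower, or 740 higher and 488 lower genes. Calls among the 10 were 4 higher and 2 lower in edgeR with DESeq2 size factors, with upper-quartile scaling, with TMM factors from all genes and without the filter on low counts, where Pla2g4a and Tbxas1 also passed, and 3 higher and 2 lower in DESeq2 with the library term, where Tbxas1 also passed. Over all genes the intron calls were 1091 higher and 915 lower with DESeq2 size factors and 1013 higher and 871 lower with TMM factors from all genes. The median intron log2 fold change of the 10 genes was 0.39, against -0.01 over all tested genes. In exons the knockdown libraries lay above both scrambled ones for 4 genes and below for 1, against 15.7% of tested genes either way. In introns they lay above for 3 genes and below for 2, against 17.1% and 14.1% of tested genes. Tbxas1 had the highest intron share, 83.3% in sh1137 (95% Wilson interval 82.9 to 83.6%) and 42.7% in sh830 (41.7 to 43.6%), against 83.5% in scrambled 1 (83.1 to 83.9%) and 46.7% in scrambled 2 (45.6 to 47.9%). These intervals cover counting error only, and the widest over the 10 genes spanned 16.8 percentage points, for Ptges in scrambled 2.

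**Figure D4:**
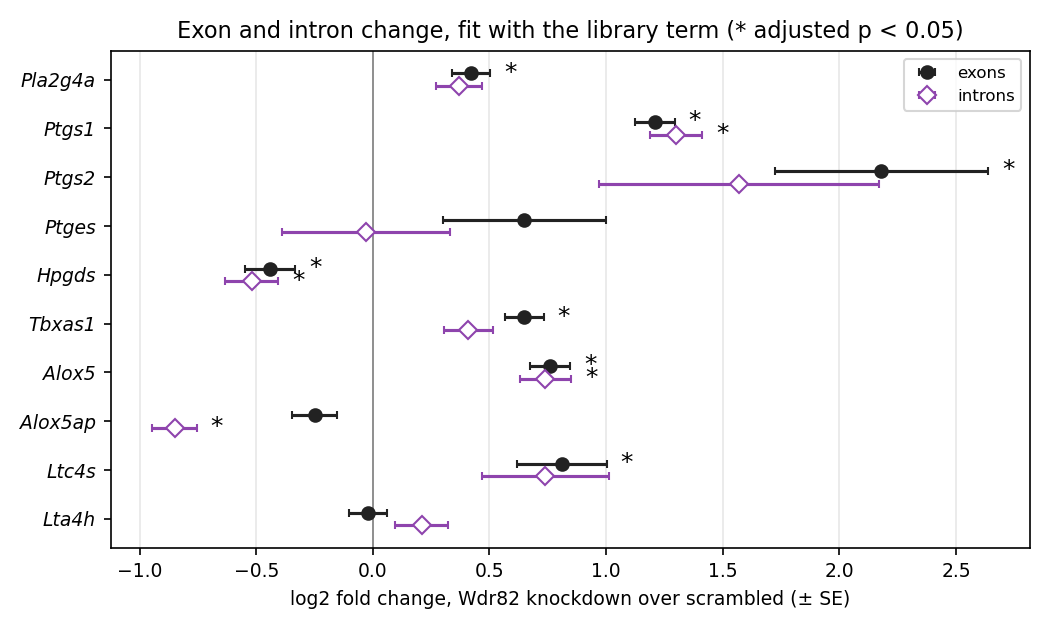
Log2 fold change of Wdr82 knockdown over scrambled libraries for each gene, with filled circles for exons, open diamonds for introns, bars for ± 1 SE in the fit with the library term, and an asterisk at an adjusted p under 0.05. Exon and intron values lie close together for Ptgs1 (1.21 and 1.3) and Alox5 (0.76 and 0.74). They lie apart for Alox5ap (-0.25 and -0.85), and also for Ptges (0.65 and -0.03) and Ptgs2 (2.18 and 1.57), where the bars are wider.

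Ltc4s encodes leukotriene C4 synthase, which joins glutathione to the leukotriene intermediate. It is the shortest of the genes, on chromosome 11 from 50049971 to 50051973 on the minus strand of mm9. Exon levels were 6.38 and 14.9 CPM in the sh1137 and sh830 libraries, against 4.08 and 7.63 CPM in scrambled 1 and 2. The groups overlapped between sh1137 and scrambled 2. The exon level rose by 0.81 ± 0.192 on the log2 scale with an edgeR adjusted p of 0.0462, next to the threshold, and that p was 0.05 with TMM factors from all genes, 0.0557 with DESeq2 size factors and 0.0641 in DESeq2 with the library term. Without sh830, and fitted by group alone, the change came to 0.13, and the same fit gave 0.47 without scrambled 1, 1.34 without sh1137 and 1.40 without scrambled 2, none past the threshold. Introns had a log2 fold change of 0.74 ± 0.271, which did not pass (edgeR adjusted p = 0.137). A deposited region named for Maml1 lies 26 bp upstream of the start of Ltc4s and rose by 1.61 ± 0.174 (edgeR adjusted p = 0.00981), with 23.0 and 5.78 CPM in the sh1137 and sh830 libraries against 7.41 and 1.93 CPM in scrambled 1 and 2, while the exons of Maml1 had a log2 fold change of 0.05 ± 0.0942. Another region, named for Mgat4b, overlaps Ltc4s exons and did not pass the test.

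Lta4h encodes leukotriene A4 hydrolase, which makes the neutrophil attractant of the pathway. It lies on chromosome 10, from 92916141 to 92947641 on the plus strand of mm9. Exon levels were 62.4 and 78.3 CPM in the sh1137 and sh830 libraries, against 62.9 and 80.2 CPM in scrambled 1 and 2. Within each library pair the values were almost the same, and the exon log2 fold change was -0.02 ± 0.0827 (edgeR adjusted p = 0.873). Intron levels of 40.6 and 37.0 CPM in the sh1137 and sh830 libraries lay above 36.1 and 30.7 CPM in scrambled 1 and 2 without passing the test (log2 fold change 0.21 ± 0.113, edgeR adjusted p = 0.273). The deposited region at the end of Lta4h, which overlaps its last exon, had 6.80 and 2.30 CPM in the sh1137 and sh830 libraries, against 1.12 and 0.702 CPM in scrambled 1 and 2. That region rose by 2.18 ± 0.36 (edgeR adjusted p = 0.0214), and the gene beyond it, Hal, had an exon log2 fold change of -0.16 ± 0.141.

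Around the core enzymes, 67 of 68 further genes of eicosanoid release, synthesis, inactivation, transport and reception were found, of which 50 passed the filter on low counts. Of these 50, 6 rose and 2 fell, read against the 6.06% and 7.79% of all tested genes, with a median log2 fold change of 0.04. Among phospholipases and releasing enzymes 3 of 16 rose and none fell in edgeR. Pla2g7, the platelet-activating factor acetylhydrolase gene, had 107 and 81.6 CPM in the sh1137 and sh830 libraries, against 14.1 and 25.9 CPM in scrambled 1 and 2, and rose by 2.28 ± 0.303 (edgeR adjusted p = 0.0142). Pla2g6, a calcium-independent phospholipase A2 gene, rose by 1.38 ± 0.189 (edgeR adjusted p = 0.015), and Plb1, a phospholipase B gene, rose by 1.92 ± 0.378 (edgeR adjusted p = 0.0301), a call lost in DESeq2 with the library term (adjusted p = 0.06). In each of the 3 genes both knockdown libraries were above both scrambled ones, as in 12 of the 50 tested genes and in 15.7% of all tested genes. The 3 genes were picked by p from the same libraries, so this adds no support.

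Receptors moved in both directions, with 1 of 9 higher and 2 lower in edgeR. Ptgir, the prostacyclin receptor gene, had a log2 fold change of 0.62 ± 0.185 that did not pass in edgeR (adjusted p = 0.0754) and did in DESeq2 with the library term (adjusted p = 0.0489). Ptger2, a prostaglandin E receptor gene, had 15.2 and 14.4 CPM in the sh1137 and sh830 libraries, against 5.58 and 4.99 CPM in scrambled 1 and 2, and rose by 1.49 ± 0.166 (edgeR adjusted p = 0.0102). Ptger4, another receptor gene for the same prostaglandin, had 15.5 and 10.7 CPM in the sh1137 and sh830 libraries, against 22.1 and 19.3 CPM in scrambled 1 and 2, and fell by 0.68 ± 0.145 (edgeR adjusted p = 0.036). Cysltr1, a cysteinyl leukotriene receptor gene, fell by 0.64 ± 0.0917 (edgeR adjusted p = 0.0163). Of the 10 tested genes of inactivation and conversion, Ggt5, whose product acts on the glutathione part of leukotrienes, rose by 2.33 ± 0.309 (edgeR adjusted p = 0.0142), and the dipeptidase gene Dpep3 rose by 1.82 ± 0.336 (edgeR adjusted p = 0.0268). No gene passed among 7 other prostanoid synthases, 6 genes of other lipoxygenases, leukotriene synthases and a lipoxygenase-binding protein, and 2 transporters in edgeR or DESeq2 with the library term, where an unadjusted edgeR p under 0.05 was reached by 1 synthase higher and 1 lower, 2 of the 6 lower (Mgst3, a microsomal glutathione transferase gene, and Cotl1, whose coactosin-like product binds actin and 5-lipoxygenase) and 1 transporter higher. The most abundant of them were Ptges3 and Cbr1 (log2 fold changes -0.25 ± 0.0856 and -0.16 ± 0.132), Cotl1 and Mgst3 (-0.34 ± 0.128 and -0.35 ± 0.0925), and Abcc1 and Abcc4 (0.05 ± 0.114 and 0.24 ± 0.0884).

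**Figure D5:**
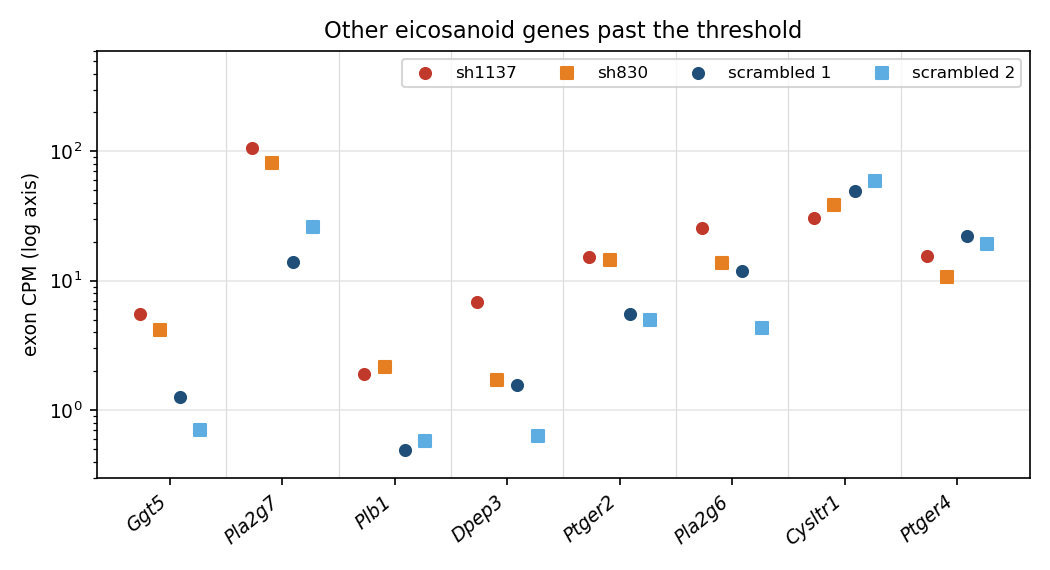
Exon counts as CPM on a log axis for the 8 further eicosanoid genes past the threshold, 1 point per library, knockdown libraries in red and orange and scrambled ones in blue. Both knockdown points are above both scrambled points for Ggt5, Pla2g7, Plb1, Dpep3, Ptger2 and Pla2g6, and below them for Cysltr1 and Ptger4. The genes were picked by p from these same libraries, so this adds no support.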

How the data were processed

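The files that the authors deposited hold unnormalized counts for exon intervals, including 1107 non-gene regions, and for intron intervals, with coordinates in mm9; the unit was read from the values. Tools in the submitters' processing notes are SICER, Cuffdiff 2.1.1, Cufflinks 2.1.1 and TopHat 1.3.1. The counting tool, and whether counting used strand, are not given in the sources used here, although the libraries were strand-marked per the labels' protocols. Symbols were matched for 21615 of 21761 gene IDs, and 0 columns of other samples were present.

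Counts of the 4 libraries were fitted in edgeR 4.0.16 (R 4.3.3) with filterByExpr, TMM factors from the genes that passed it, a group term and the library term, which leaves 1 residual degree of freedom. Exons and introns had factors of their own, and unequal change of introns and exons was tested as a group by interval type interaction with a term for each library. An SE is the size of the log2 fold change divided by the square root of F. CPM are counts per 1000000 effective exon or intron counts. Values after ± are SEs. DESeq2 1.42.0 and other settings were alternatives; TMM factors from all genes were used first, and were replaced as the main setting, after results were seen, by those from filtered genes to follow earlier processing of these files. The fits were tested on counts simulated with the library split kept, so that test does not bear on the choice of the library term. Of simulated log2 changes of 0.5 it recovered 16 of 66 in exons, 32 of 66 in introns and 8 of 63 for intron against exon. For changes of 2 these were 65 of 66, 62 of 65 and 61 of 64. Depth of 34787556 exon counts or more per library sets the counting precision, and each library is 1 sample.

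The members, the lists and the library term were chosen with earlier results of these data known. All 10 members are named, together with Wdr82, up to 4 called genes per role and direction of the wider list (otherwise the 2 most abundant), 4 regions by smallest p and the 3 patterns nearest to that of Ptgs1. The Hpgds region, the Mgat4b and Tor1b regions, Ptgs2os, Hipk2, Hal, Maml1 and the genes given in the other observations were named after their values were seen.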

Additional observations from a re-analysis of the deposited data

How the results depend on the processing

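No paired analysis was possible because the labels of the knockdown libraries carry hairpin names and no replicate numbers; the library term sets sh1137 beside scrambled 1 and sh830 beside scrambled 2, a pairing read from the data and not given by the labels, and the reported calls rest on it. Exon calls over all genes, 1922 with the library term, numbered 0 with the group term alone (0 of the 10 genes, 0 of 7 regions, 0 of the wider list), 24 with a term for the crossed split of the libraries (0 of the 10 genes, 0 regions, 1 of the wider list) and 176 in DESeq2 with the group term alone (1 of the 10 genes, 2 regions, 3 of the wider list). Exon calls among the 10 genes, 7 as reported, numbered 4 with DESeq2 size factors and 5 with TMM factors from all genes, the setting used first. Intron calls, 1228 over all genes and 4 among the 10, numbered 0 and 0 with the group term alone, 62 and 0 with the crossed split, 166 and 0 in DESeq2 with the group term alone, and over all genes 2006 with DESeq2 size factors, 1884 with TMM factors from all genes (added after the data were seen) and 2366 without the filter. Intron against exon calls, 430 and 1, numbered 0 and 0 with the group term alone and with the crossed split, and 197 over all genes with TMM factors from all genes. Leaving out 1 library at a time, with the group term alone since the library term leaves no residual degrees of freedom, so that a lone library is assumed to vary like the other group, gave 14 to 206 exon calls, 5 to 235 intron calls and 0 to 2 intron against exon calls over all genes, and 0 to 1, 0 to 1 and 0 to 0 among the 10; regions numbered 0 to 4 and the wider list 1 to 3. Among the exon fold changes, signs turned without 1 library for Ptgs2 (-0.02 to 3.83), Alox5ap (-0.55 to 0.02) and Lta4h (-0.20 to 0.19), and for Lta4h with upper-quartile scaling (0.06). Among introns they turned without 1 library for Pla2g4a (-0.17 to 0.84), Ptgs2 (-1.3 to 4.69), Ptges (-0.43 to 0.56) and Tbxas1 (-0.52 to 1.3), and for Ptges with the crossed split (0.03) and upper-quartile scaling (0.01). For intron against exon they turned without 1 library for Pla2g4a (-0.71 to 0.59), Ptgs1 (-0.27 to 0.41), Ptgs2 (-1.56 to 0.84), Hpgds (-0.21 to 0.03), Tbxas1 (-0.80 to 0.32), Alox5 (-0.73 to 0.68), Ltc4s (-0.13 to 0.01) and Lta4h (-0.09 to 0.56). The cause was not tested. Ptges had the lowest exon counts of the 10 genes, 67 to 148 per library. In the settings that kept the library term, all values of Ptgs1, Tbxas1, Alox5 and Pla2g4a over exons kept their call.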

Other observations

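Several eicosanoid genes that did not pass the filter on low counts were counted almost wholly in sh830. Slco2a1, a prostaglandin transporter gene, had 80 exon counts in sh830 and 0 in sh1137, against 2 and 0 in scrambled 1 and 2. Ephx2, a soluble epoxide hydrolase gene, had 48 counts in sh830 and 2 in sh1137, against 0 and 0 in scrambled 1 and 2. Ptgis, the prostacyclin synthase gene, had 12 counts in sh830 and 0 in each of the other 3 libraries. A count of 0 allows up to 3 counts per library, or 0.0801 CPM in sh1137, 0.0734 CPM in scrambled 1 and 0.0753 CPM in scrambled 2. The sh830 library is also the one with the highest Ptgs2 level and the highest summed level of fibroblast and stroma markers, and the part of those markers was not tested. Summed macrophage markers (15166 CPM), mast cell and basophil markers (3.36 CPM) and B cell markers (1.71 CPM) were highest in sh830 as well. Most of each sum there came from Lyz2 (9210 CPM), Mcpt8 (3.06 CPM) and Ms4a1 (1.52 CPM), in that order. Not every marker of these types was highest in sh830. The sums of the remaining cell types listed were highest in another library. Ptgds, Alox12b, Cyp4f14 and Oxgr1 were at 0 in all 4 libraries.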
